A study of Mus musculus with 4 samples.

Results

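Cells carrying RNA of Ace and Treml4, a pair of genes used in mouse blood to recognise nonclassical monocytes, were picked out of the immune infiltrate of B16-GP33 melanomas. They were chosen by raw counts of unique molecular identifiers (UMIs, 1 per captured RNA molecule). A cell needed at least 1 UMI summed over Ace and Treml4 and at least 1 of Csf1r, with none of Cd3d, Cd3e, Cd3g or Nos2. It could carry at most 1 UMI summed over C1qa, C1qb and C1qc, fewer than 2 of Cd209a and fewer than 3 of Arg1. Of 25954 kept cells, 1255 met the rule, and they are called Ace/Treml4 monocytes here. The tumours, a C57BL/6 melanoma line carrying the viral peptide GP33, grew under the skin of C57BL/6 mice for 18 days. Mice were given a control antibody (IgG), an antibody to PD-1, one to PSGL-1 or both of these, in doses of 200 ug per antibody on days 8, 10 and 12. Living CD45.2-positive cells were sorted, so that only leukocytes entered the libraries, and each treatment was a single droplet library. How many mice were pooled in a library is not given in the sources used here, so the treatments are described and were not tested against each other.

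Nonclassical monocytes are the Ly6C-low branch of circulating monocytes. In mice they arise from classical Ly6C-high monocytes, depend on the nuclear receptor Nr4a1 and on signals through Csf1r, and crawl along the inner wall of small vessels by means of the integrin LFA-1 and the chemokine receptor Cx3cr1. They are known for clearing debris, for a high level of the Fc receptor Fcgr4 and, in tumour-bearing lung, for engaging tumour material, whereas classical monocytes leave the blood through Ccr2 and turn into tumour macrophages.

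The libraries held 4614 to 9733 barcodes and 40913129 to 53303195 UMIs, and 4382 to 9465 cells were kept. Median depth per kept cell was 3760 UMIs with IgG, 6389.5 with anti-PD-1, 6374 with anti-PSGL-1 and 8543.5 with the combination, and this order is used for all lists of 4 values. The Ace/Treml4 monocytes had medians of 4528, 5975, 7298.5 and 7609 UMIs, and together held 1313760, 1768027, 3202110 and 2511784 UMIs. Of all kept barcodes 61 occurred in more than 1 library, and 0 of them were Ace/Treml4 monocytes in more than 1 library. All intervals below cover counting error only.

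Ace/Treml4 monocytes were least frequent with IgG and most frequent with the combination. The rule picked 282 of 9465 cells with IgG, which is 2.98% (exact 95% binomial interval 2.65 to 3.34), and 277 of 5238 with anti-PD-1, 5.29% (4.70 to 5.93). It picked 390 of 6869 cells with anti-PSGL-1, 5.68% (5.14 to 6.25), and 306 of 4382 with the combination, 6.98% (6.25 to 7.78). The interval of IgG lay below the other 3, those of the single antibodies overlapped, and that of the combination lay above anti-PD-1 and met that of anti-PSGL-1 at its end. Because deeper cells pass a count threshold more easily and IgG was the shallowest library, every cell with 2000 or more UMIs was also thinned to 2000. The shares then were 1.69% (1.41 to 2.00), 2.75% (2.31 to 3.24), 2.58% (2.20 to 3.00) and 3.67% (3.12 to 4.28), lower throughout and with the same extremes.

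**Figure D1:**
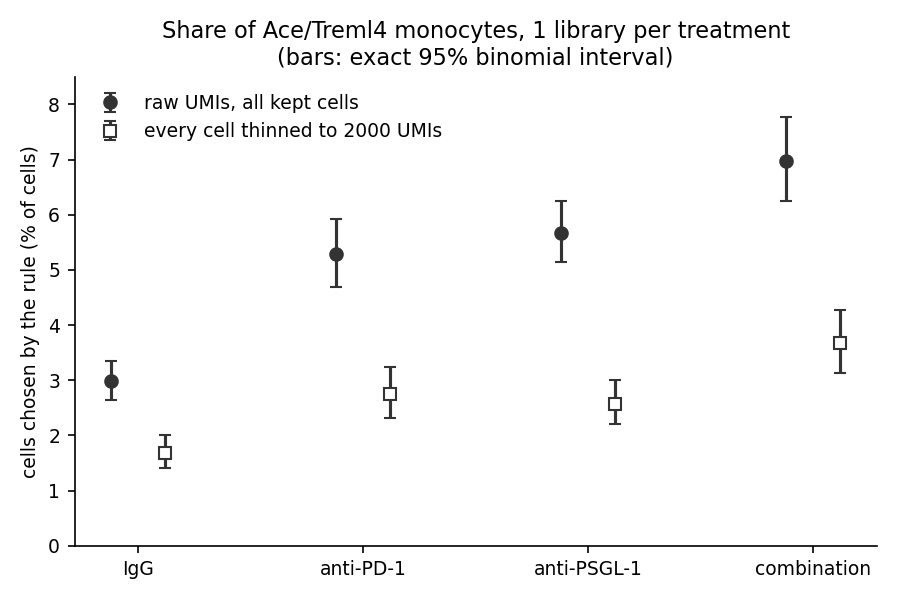
Share of cells chosen as Ace/Treml4 monocytes (y axis, % of cells) in each of the 4 libraries, on raw UMIs of all kept cells (filled circles) and after thinning cells to 2000 UMIs (open squares), with exact 95% binomial intervals. IgG is lowest at 2.98% raw and 1.69% thinned, and the combination highest at 6.98% and 3.67%.

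The share depended on what it was set against. Among cells with a Csf1r UMI, Ace/Treml4 monocytes made up 11.7%, 13.7%, 17.4% and 20.8%. Against Ly6c2 monocytes, a set with at least 3 Ly6c2 UMIs, no Ace or Treml4 and otherwise the same limits, they made up 39.9%, 34.3%, 53.1% and 42.3% of both sets together. On that scale anti-PSGL-1 was highest and anti-PD-1 lowest. Both kept their place after thinning, at 45.5%, 33.3%, 59.0% and 42.2%, while IgG and the combination changed places. Free RNA and doublets give such counts in cells that should lack them. T cells with at least 2 Cd3 UMIs carried an Ace or Treml4 UMI in 2.43%, 1.28%, 1.95% and 1.03% of cells at median depths of 3625, 8469, 6450.5 and 10037 UMIs. Among Ly6c2-positive cells otherwise within the limits, the share with an Ace or Treml4 UMI was 15.2%, 22.6%, 32.8% and 30.6%, over the T cell level in each library. C1q macrophages, here without a limit on Ace and Treml4, carried an Ace or Treml4 UMI in 7.34%, 12.7%, 9.56% and 18.8% of cells, between the other shares in each library.

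The genes of the rule are described without a test. Ace (chr11:105967945-105989964 in GRCm38, plus strand) encodes angiotensin-converting enzyme and stood at 291, 299, 249 and 285 CPM, UMIs of the gene per 1000000 UMIs of the set. Treml4 (chr17:48264295-48275360, plus strand), a receptor of the Trem family that binds dead cells, stood at 207, 179, 174 and 288 CPM, highest with the combination. Csf1r, the receptor for the growth factor CSF1, stood at 547, 535, 496 and 665 CPM. Both Ace and Treml4 were seen in 28.7%, 40.4%, 43.8% and 55.9% of the chosen cells, in the order of their depth. Thinned to 2000 UMIs, the chosen cells carried Ace in 45.6%, 40.9%, 38.0% and 43.5% and Treml4 in 33.3%, 30.7%, 29.4% and 40.9%. Many cells lay near the threshold. A sum of exactly 1 over Ace and Treml4, just inside, was found in 466 cells, and 2746 cells that met all other conditions had 0. At the Csf1r limit 228 cells had 1 UMI and 178 had 0, at the Cd3 limit 139 cells were left out for a single UMI, and at the C1q limit 79 cells had 1 UMI and 17 had 2. The Cd209a, Arg1 and Nos2 limits left out 3, 2 and 18 cells at the next higher count.

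The label was set beside a list drawn up with earlier results of these data known, which is no independent check. The list holds 30 genes that mark nonclassical monocytes and that the rule does not read. Thinned to 2000 UMIs, the median Ace/Treml4 monocyte carried UMIs of 8, 9, 9 and 11 of them, with a range of 1 to 25 over all cells, and the median Ly6c2 monocyte of 5, 6, 5 and 6. Their summed level was 10269.8, 10462, 10834 and 12283 CPM. In Ly6c2 monocytes it was 5833, 5964, 6433 and 6454 CPM, and in C1q macrophages (at least 5 C1q UMIs) 4909, 5847, 4689 and 5512 CPM. In Cd209a dendritic cells (at least 2 Cd209a UMIs) it was between 2343 and 2989 CPM. The summed markers of Ace/Treml4 monocytes were above those of the other 3 sets in every library, although single cells overlapped. In Ace/Treml4 monocytes with a sum of 1 over Ace and Treml4 the list stood at 8437, 7820, 8257 and 8096 CPM.

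Set against Ly6c2 monocytes of the same library, Ace/Treml4 monocytes had more RNA of nearly every nonclassical marker. The comparison used edgeR's quasi-likelihood test on UMI sums with the library as a block, so that 4 libraries of unlike treatment served as replicates of the difference between cell sets. Of 8371 genes tested, 996 (11.9%) were higher and 989 (11.8%) lower at an adjusted p of 0.05. Of the 30 nonclassical markers, 29 were higher and 1 lower, with a median log2 fold change of 1.63, against -0.01 over all genes tested. With both sets limited to 3 or more Ly6c2 UMIs, 24 of 27 were higher and 0 lower, with a median of 1.04. These markers belong to the gene programme the rule was built to find, so the counts describe the cells and were not tested as a list.

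The regulators and the vessel-crawling receptors came first. Nr4a1, the nuclear receptor on which these cells depend in mice, stood at 701, 544, 882 and 629 CPM in Ace/Treml4 monocytes and at 365, 271, 476 and 266 CPM in Ly6c2 monocytes. The 4 values of each set differed within every library by a log2 fold change of 1.00 ± 0.16 (SD of the per-library log2 ratio, n = 4; adjusted p = 1.0e-07, edgeR's quasi-likelihood test with Benjamini-Hochberg adjustment). Pou2f2, the transcription factor Oct-2, was at 338, 331, 375 and 409 against 96.4, 72.8, 98.9 and 107 CPM, and no value of one set reached the other. Klf2, a factor of quiescent circulating leukocytes, was closer, at 254, 273, 319.8 and 395 against 159, 225, 263 and 233 CPM with a log2 fold change of 0.48 ± 0.26.

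Cx3cr1, the fractalkine receptor, was at 153, 105, 148 and 145 CPM against 48.8, 20.4, 69.0 and 53.1 CPM (log2 fold change 1.55 ± 0.53, SD, n = 4). Itgal, the alpha chain of LFA-1, was at 467, 459, 566 and 632 CPM against 126, 138, 181 and 162 CPM, and the sets did not overlap. Spn (chr7:127132232-127137823, minus strand), which encodes the sialophorin CD43 used to sort these monocytes, was at 107, 79.2, 112 and 157 CPM against 11.3, 9.24, 17.2 and 17.2 CPM, a log2 fold change of 3.02 ± 0.24. S1pr5, a sphingosine phosphate receptor needed for monocytes to leave the bone marrow in mice, was sparse at 16.0, 11.3, 13.4 and 14.7 CPM, and Ly6c2 monocytes had it at 0, 0, 0 and 1.13 CPM, so no fold is given.

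The widest differences were in genes of less settled function in monocytes. Eno3 (chr11:70657202-70662513, plus strand), the muscle form of the glycolytic enzyme enolase, was at 99.0, 80.9, 65.6 and 163 CPM against 3.49, 4.62, 3.36 and 3.11 CPM (log2 fold change 4.77 ± 0.71, SD, n = 4). Adgre4 (chr17:55749984-55853662, plus strand), an adhesion G protein-coupled receptor of mouse myeloid cells, was at 159.8, 147, 139.9 and 213 CPM against 14.0, 12.0, 16.4 and 11.9 CPM. Ear2, an eosinophil-type ribonuclease, reached a log2 fold change of 3.67 ± 0.55, and Gngt2, a G protein gamma subunit, 2.05 ± 0.26. Fabp4 and Cd36, which bind and take up fatty acids, were at 56.3, 45.2, 74.0 and 97.5 and at 108, 132, 141 and 134 CPM, with log2 fold changes of 2.74 and 2.05. Ceacam1, an adhesion molecule, and Pglyrp1, which binds bacterial peptidoglycan, followed with 2.01 and 2.82.

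Fcgr4 and Cd274 varied more by library than by cell set. Fcgr4 (chr1:171018920-171029761, plus strand), the activating receptor for IgG2 antibodies, was at 219, 439, 263 and 426 CPM against 171, 345, 107 and 288 CPM, with the anti-PD-1 and combination libraries high in both sets. Cd274, which encodes PD-L1, was at 145, 390.3, 193 and 345 CPM against 109, 409, 111 and 268 CPM, and with anti-PD-1 Ly6c2 monocytes had slightly more. Rhoc, a small GTPase, was the marker found lower, at 1.52, 1.13, 2.19 and 2.39 CPM against 4.80, 7.06, 7.83 and 4.80 CPM, a level of few molecules. The plot of marker genes shows the 4 libraries side by side.

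**Figure D2:**
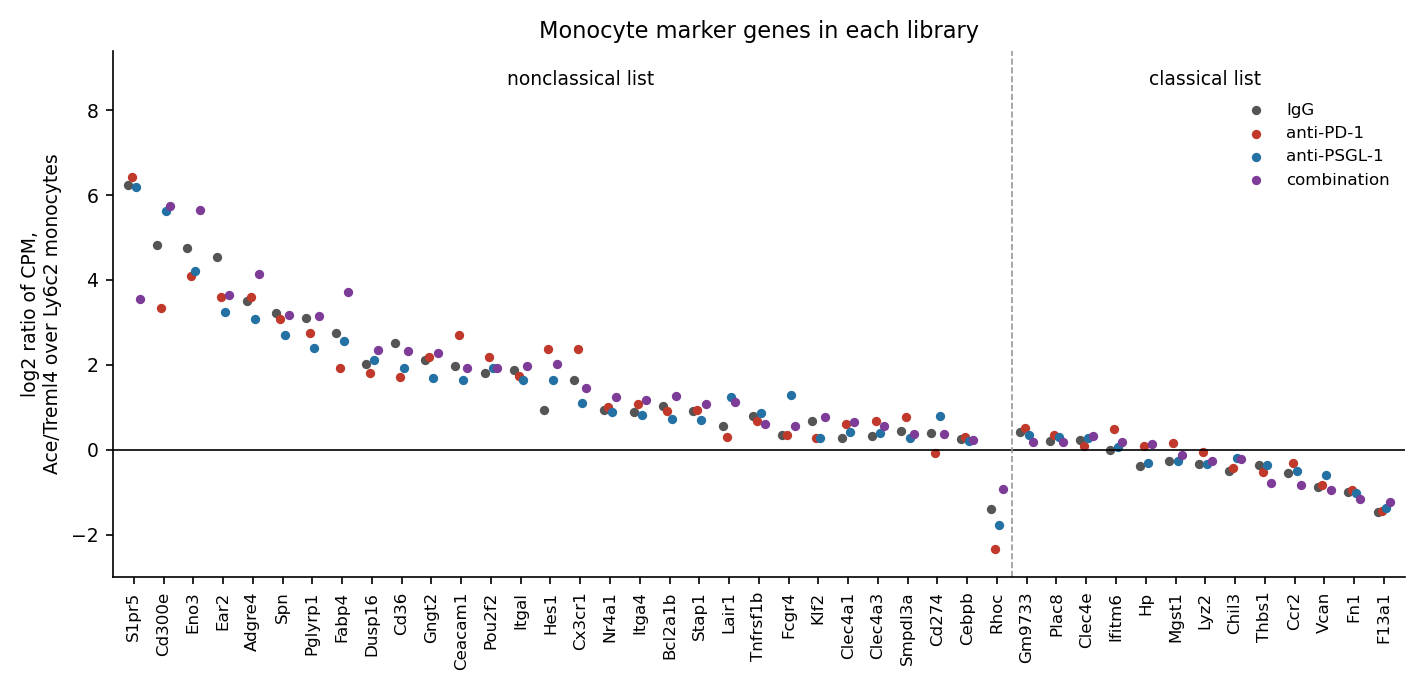
Log2 ratio of CPM in Ace/Treml4 over Ly6c2 monocytes (y axis) for nonclassical and classical markers tested (x axis, 1 classical marker not shown), with 1 point per library and 0.5 counts added to each sum. Points of nonclassical markers lie above 0 except Rhoc and the anti-PD-1 value of Cd274, and those of F13a1, Fn1, Vcan, Ccr2, Chil3, Lyz2 and Thbs1 lie below 0 in every library.

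Ace/Treml4 monocytes still carried the classical programme at high level. Of 14 classical markers tested, 8 were lower and 3 higher, with a median log2 fold change of -0.31. With both sets limited to 3 or more Ly6c2 UMIs, 6 of 14 were lower and 3 higher, with a median of -0.01. Against a set chosen by Ccr2 in place of Ly6c2, 6 of 13 were lower and 4 higher, with a median of -0.13. Ccr2, the receptor that brings monocytes into tissue, was at 531, 493, 529 and 429 CPM against 778, 608, 748 and 765 CPM, a reduction but not an absence. F13a1, a clotting factor subunit, had a log2 fold change of -1.39 ± 0.11, Fn1, the matrix protein fibronectin, -1.05 ± 0.09, and Vcan, the proteoglycan versican, -0.83 ± 0.15. Lysozyme 2 (Lyz2) remained among the most abundant transcripts of the set at 16481, 15149.7, 15219 and 17981 CPM, and Plac8 and Clec4e were slightly higher than in Ly6c2 monocytes, with log2 fold changes of 0.24 and 0.21. Ly6c2 itself, which helped to choose the comparison set, was at 565, 1392, 628 and 1118 CPM. Cells with 3 or more Ly6c2 UMIs made up 27.0%, 56.0%, 43.1% and 60.1% of Ace/Treml4 monocytes, and cells with none 47.2%, 28.5%, 32.6% and 24.8%.

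Within the chosen cells both programmes ran in opposite directions along Ly6c2, a gene the rule does not read. In cells without a Ly6c2 UMI the nonclassical list summed to 13496, 14399, 13569 and 19809.7 CPM, and in cells with 3 or more to 7498, 8568, 9484 and 10086 CPM. The 14 classical genes other than Ly6c2 summed to 22388, 18415, 17793 and 14325 CPM and to 31871, 29449, 29858 and 34680.0 CPM in the same classes. Cells with 1 or 2 Ly6c2 UMIs lay between them in every library for both lists, at 8848, 12198, 10770.4 and 14692 CPM for the nonclassical and 27415, 24852, 25579 and 22002 CPM for the classical list. The gap was widest with the combination. Cells without Ly6c2 were also the shallowest, with medians of 3955, 4891, 6050 and 4775 UMIs against 5209, 6382, 8602 and 8649 in cells with 3 or more. They carried the neutrophil list at 2080.4, 478, 4380.1 and 3158 CPM against 593, 195, 1119 and 2339 CPM, and the part of either in the marker pattern was not tested. Cells with UMIs of both Ace and Treml4 had the nonclassical list at 12910.3, 13394, 12819 and 14911 CPM, above cells with Ace alone (9371, 8621, 9635 and 9062 CPM) and with Treml4 alone (8946, 8548, 8387 and 8754 CPM). This split uses the same counts that chose the cells, so it describes them and is no check of the label.

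**Figure D3:**
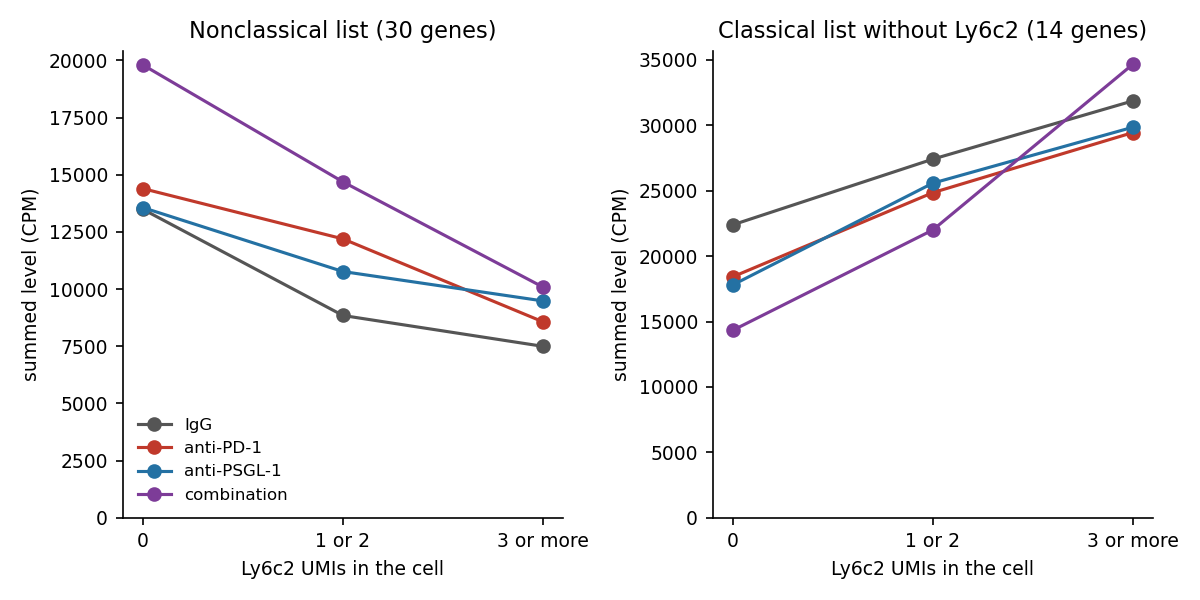
Summed level of 30 nonclassical markers (left) and of 14 classical markers without Ly6c2 (right), in CPM (y axes), for Ace/Treml4 monocytes with 0, 1 or 2, and 3 or more Ly6c2 UMIs (x axes), with 1 line per library. The nonclassical sum falls from left to right in all 4 libraries and the classical sum rises, each most steeply in the combination library.

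Adhesion and migration genes were mostly higher in Ace/Treml4 than in Ly6c2 monocytes, and survival genes were divided. Of 22 tested genes for patrolling, adhesion and migration, 15 were higher and 4 lower, the lower ones including the chemokine receptors Ccr1 and Ccr2. Integrin chains (Itgal, Itgb2, Itga4, Itgb1), the LFA-1 ligand Icam1 and Selplg, which encodes PSGL-1, were among the higher ones. Selplg differed little, at 225, 209, 203 and 231 CPM against 183, 167, 177 and 183 CPM. Of 16 survival genes 7 were higher, 3 lower and 6 not called, with a median log2 fold change of 0.11. Bcl2l1 and Bcl2l11, which act for and against survival, were lower, and Mcl1 and Cflar were not called. Bcl2, the survival factor reported to sustain nonclassical monocytes in mice, was at 31.2, 29.4, 31.9 and 56.5 CPM against 14.4, 12.0, 11.9 and 7.91 CPM (log2 fold change 1.71 ± 0.78, SD, n = 4), and it was highest in the combination library.

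Fc and other immune receptors were divided. Of 22 tested, 12 were higher, among them Fcgr4, Clec4a1, Clec4a3, Cd300e and the inhibitory collagen receptor Lair1. The other Fc gamma receptors were lower. Fcgr1, the high-affinity IgG receptor of classical monocytes, was at 279, 376, 245 and 299 CPM against 530.2, 741, 411 and 628 CPM (log2 fold change -0.95 ± 0.13, SD, n = 4), and Fcgr2b and Fcgr3 differed by -0.37 and -0.28.

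Chemokines that attract monocytes were much lower in Ace/Treml4 than in Ly6c2 monocytes. Of 26 cytokine and chemokine genes tested, 15 were lower and 4 higher. Ccl2, the ligand of Ccr2, was at 404, 656, 417 and 351 CPM against 1228, 1919, 1195 and 1333 CPM (log2 fold change -1.67 ± 0.19, SD, n = 4), and the related Ccl7 was at 66.2, 109, 76.5 and 56.1 CPM against 289.5, 538, 357 and 159 CPM. Neither gene overlapped between the sets. Il1b and Tnf, inflammatory cytokines, went the other way with log2 fold changes of 0.41 ± 0.16 and 0.65 ± 0.59. Il1b was the most abundant gene of this list, at 5504, 5939, 6179 and 5182 CPM, with a UMI in 92.8% to 96.2% of the cells.

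Glycolysis and hypoxia genes were lower as a block. Of 22 tested, 19 were lower and 0 higher at the adjusted threshold, with a median log2 fold change of -0.52. Gapdh was at 1076, 1145, 1314 and 1233 CPM against 1589, 2092, 1442 and 1749 CPM, and the glucose transporter gene Slc2a1 at 92.1, 129.5, 166 and 103 CPM against 162, 213, 161 and 177 CPM. The gaps were narrowest with anti-PSGL-1, where Slc2a1 was nearly equal in both sets. With both sets limited to cells with 3 or more Ly6c2 UMIs, or with a comparison set chosen by Ccr2 in place of Ly6c2, 19 of 22 were again lower.

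Interferon-response genes depended on the comparison set. Of 27 genes induced by type I interferon, 20 were lower and 0 higher than in Ly6c2 monocytes, with Isg15, a ubiquitin-like protein, at 648, 1248, 416 and 705 CPM against 1013, 1886, 584 and 1044 CPM. The median log2 fold change was -0.31. With both sets limited to 3 or more Ly6c2 UMIs 3 of 26 were lower, with a median of -0.05. Calls over all genes there also fell, to 492 higher and 458 lower. With the set chosen by Ccr2 4 of 27 were lower and 2 higher, with a median of -0.08. Leaving out cells with 2 or more UMIs of T, NK, B or neutrophil markers gave 16 of 25 lower, and thinning to 2000 UMIs 15 of 25. Ly6c2 is itself an interferon-responsive gene, and its part in the difference was not tested. Of 13 tested genes of MHC class II presentation, 7 were lower and 0 higher, H2-Ab1 being at 1899, 2722, 1244 and 1609.6 CPM against 2622, 2497, 1871 and 2233 CPM. Without cells that carried 2 or more UMIs of T, NK, B or neutrophil markers, 2 of 11 were lower. Among 17 MHC class I genes 4 were higher and 5 lower, with a median of -0.12. The heavy chains H2-K1 and H2-D1 were higher, with log2 fold changes of 0.31 ± 0.12 and 0.23 ± 0.07, as were H2-Q6 and H2-Q7, near-identical genes whose reads may be shared. Lower were H2-T23, the peptide-loading factor Tapbp, the immunoproteasome subunit Psmb8 and the proteasome activators Psme1 and Psme2.

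Among the largest differences of single genes, Adrbk2, a receptor kinase, and Cyth3, an exchange factor for ARF GTPases, were higher, with log2 fold changes of 2.37 and 2.19. G0s2, an inhibitor of fat breakdown and one of the neutrophil markers, was higher by 2.60, and 7 of 8 neutrophil markers tested were higher and 0 lower. Lower were Emp1 (-1.96), Sdc4, a syndecan (-1.75), Ccnd1, cyclin D1 (-1.75), the nuclear lamin gene Lmna (-1.66), Mmp19, a matrix protease (-1.63), and C3ar1, the C3a receptor (-1.54). Gzma, a granzyme of killer lymphocytes and an NK marker (-2.09), and the eosinophil-attracting chemokine Ccl24 (-1.72) were called lower from few cells. With IgG, 3 cells held 92% of 50 Gzma UMIs, and Ccl24 had 7 UMIs in 5 cells. G0s2, Gzma, Ccl24 and S100a9 were no longer called without the library as a block. S100a9, a subunit of the neutrophil protein calprotectin, was also called higher, with a log2 fold change of 2.19 ± 2.80, and rested on few cells, as described below with the neutrophil genes. When cells were thinned to 2000 UMIs the test called 455 genes higher and 429 lower, DESeq2 called 495 and 433, and without the combination library 588 were lower.

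Ace/Treml4 monocytes stood further from macrophages and dendritic cells. C1q macrophages were required to have Csf1r and no Cd3, Ace or Treml4, but were not limited in Arg1, Nos2 or Cd209a. Against this set 21.3% of 8599 genes were higher and 21.5% lower. Of the 30 nonclassical markers 24 were higher, Adgre4 by 5.23 ± 0.54 and Pglyrp1 by 5.55 ± 0.64 on the log2 scale (SD, n = 4), and Fcgr4 was not called, at 219, 439, 263 and 426 against 232, 538, 223 and 467 CPM. Of 14 macrophage markers 12 were lower. Pf4, the chemokine platelet factor 4, differed by -6.89 ± 0.93, the mannose receptor Mrc1 by -4.00 ± 0.96, Ms4a7 by -4.39 ± 0.80, and Ccl8, a chemokine of resident macrophages, was at 0.761, 2.83, 4.06 and 1.19 CPM against 339, 263, 685 and 339 CPM. All 22 glycolysis and hypoxia genes were lower, and 17 of 19 cell cycle genes, with medians of -1.04 and -2.32. C1q macrophages held Arg1 at 248, 355, 588 and 493 CPM and Nos2 at 26.5, 210, 44.8 and 177 CPM. The rule limits both genes in Ace/Treml4 monocytes, and the part of the unlike limits in these differences was not tested.

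Cd209a dendritic cells had at least 2 Cd209a UMIs and no Ace, Treml4, Cd3 or Nos2. The C1q and Arg1 limits were those of the rule, and Csf1r was not required. Against this set 24% of 7853 genes were higher and 23.1% lower. All 10 tested markers of conventional type 2 dendritic cells were lower, with a median of -3.77, and 9 of 13 class II presentation genes, with a median of -2.14. Both gates read Cd209a, so these counts describe the sets as chosen and were not tested as lists. All 22 lipid and lysosome genes were higher, with Cd36 at 108, 132, 141 and 134 CPM against 0.926, 2.91, 5.79 and 3.19 CPM and Apoe, the lipid carrier apolipoprotein E, differing by 5.45 ± 2.10. Of 24 cytokine genes 22 were higher. Chil3, a chitinase-like protein of monocytes, showed the largest named difference at 7.39 ± 0.29 on the log2 scale, from 580.0, 837, 853 and 1029 CPM against 3.70, 5.82, 4.05 and 4.79 CPM.

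RNA of several other cell types was low in the chosen cells, and that of neutrophils, macrophages and type 1 dendritic cells was not. Mast cell and basophil markers summed to at most 0.566 CPM, with Mcpt8, Cpa3, Ms4a2, Fcer1a and Gata2 at 0. Melanoma genes summed to 16.7 to 19.5 CPM, T cell genes to 12.3 to 22.6 CPM, and the type 2 dendritic cell list to 129.6 to 178 CPM against 1737 to 2487 CPM in Cd209a dendritic cells. The macrophage list, at 3329.5 to 4368 CPM against 5056 to 7413 CPM in C1q macrophages, was shared in part. The neutrophil list of 9 genes summed to 1153, 267, 2353 and 2273 CPM, and to 395, 169.5, 1344 and 176 CPM in Ly6c2 monocytes. Cells with 2 or more UMIs summed over S100a8, S100a9, Retnlg and Ly6g made up 7.09%, 1.81%, 12.1% and 5.56% of Ace/Treml4 monocytes. Leaving out cells with 2 or more UMIs summed over all T, NK, B and neutrophil markers kept 184 of 282, 144 of 277, 193 of 390 and 147 of 306.

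The treatments were then compared within Ace/Treml4 monocytes, to ask how these cells differed when PD-1, PSGL-1 or both had been targeted. PD-1 restrains T cells after their activation. PSGL-1 binds selectins when leukocytes roll along vessels and has also been reported to restrain T cells. Each ratio compares the CPM of 2 libraries, with an exact conditional 95% interval in parentheses, and a gene is counted as higher or lower from a 1.5-fold difference. Only the 4847 genes with a mean of at least 20 CPM were counted. The 3 comparisons with IgG share that library, so their values are set side by side and not tested against each other.

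Anti-PD-1 gave the clearest pattern, a block of interferon-gamma response genes. With anti-PD-1 over IgG, 7.32% of genes were higher and 5.36% lower, while 18 of 19 genes of the interferon-gamma list were higher and 0 lower, with a median log2 ratio of 1.45 against -0.02 over all genes. Iigp1, an interferon-inducible GTPase that attacks the vacuoles of intracellular parasites, was at 11.4, 142, 19.0 and 119 CPM, a ratio of 12.4 (7.40 to 22.5). Irgm1, a GTPase of the same family, was at 177, 648, 107 and 408 CPM, a ratio of 3.65 (3.17 to 4.22). Socs1, the inhibitor that interferon signalling induces against itself, was at 74.6, 303, 48.1 and 166 CPM, a ratio of 4.06 (3.27 to 5.08). All 3 were high with anti-PD-1 and the combination and low with IgG and anti-PSGL-1.

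Cxcl9 and Cxcl10, the chemokines that draw in T cells carrying Cxcr3, were also highest with anti-PD-1. Cxcl10 was at 914, 3099.5, 629 and 1419 CPM, a ratio of 3.39 (3.18 to 3.61) for anti-PD-1, and 71 of 282, 204 of 277, 113 of 390 and 180 of 306 cells carried a UMI of it. After thinning to 2000 UMIs these shares were 21.5, 62.8, 18.2 and 46.5%, with anti-PD-1 again highest and anti-PSGL-1 lowest. Cxcl9 was at 312, 1079.7, 239 and 591 CPM. The guanylate-binding protein gene Gbp2 was at 431, 1443, 460.3 and 1053 CPM, and the transcription factors of the pathway followed, with Irf1 at 424, 855, 286 and 769 and Irf8 at 347, 843, 259.5 and 578 CPM. Serpina3f, a protease inhibitor, was at 7.61, 49.2, 2.19 and 23.9 CPM, a ratio of 6.46 (3.35 to 14.0).

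**Figure D4:**
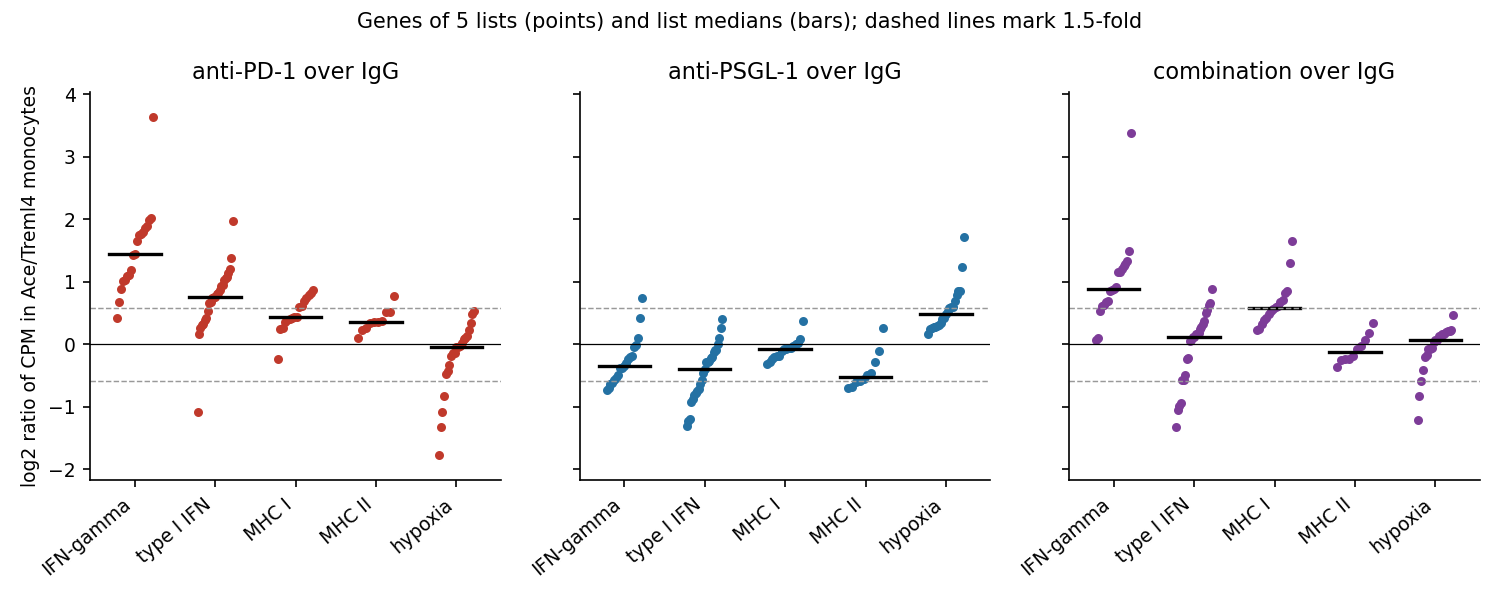
Log2 ratio of CPM over IgG in Ace/Treml4 monocytes (y axis) for each tested gene of 5 lists (x axis), in the 3 treated libraries, with list medians as black bars and 1.5-fold as dashed lines. The interferon-gamma median is 1.45 with anti-PD-1, -0.35 with anti-PSGL-1 and 0.88 with the combination, and the hypoxia median is 0.49 with anti-PSGL-1.

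Promoters of 3 of the 5 genes that were highest by interval in this comparison are printed, chosen because they hold the core of the interferon-stimulated response element, a site bound by IRF factors. They run from 250 bases before to 50 after the start of the gene, on the gene's own strand, from RefSeq's GRCm38.p6 table, for Cxcl10 at chr5:92348840-92349139, Irgm1 at chr11:48871371-48871670 and Socs1 at chr16:10785487-10785786, all on the minus strand. Capitals mark matches to GAAA, any 2 bases, GAAA, searched on both strands, with 1 match in Cxcl10 and 2 overlapping matches in each of the others. Serpina3f, another of the 5 genes, has 2 promoters in the table, with 0 matches in both.
Cxcl10: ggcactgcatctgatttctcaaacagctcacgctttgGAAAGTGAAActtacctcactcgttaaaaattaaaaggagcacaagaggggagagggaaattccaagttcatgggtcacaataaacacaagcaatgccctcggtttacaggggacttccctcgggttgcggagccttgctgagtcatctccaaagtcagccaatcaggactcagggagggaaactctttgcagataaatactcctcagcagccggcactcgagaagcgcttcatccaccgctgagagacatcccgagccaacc
Irgm1: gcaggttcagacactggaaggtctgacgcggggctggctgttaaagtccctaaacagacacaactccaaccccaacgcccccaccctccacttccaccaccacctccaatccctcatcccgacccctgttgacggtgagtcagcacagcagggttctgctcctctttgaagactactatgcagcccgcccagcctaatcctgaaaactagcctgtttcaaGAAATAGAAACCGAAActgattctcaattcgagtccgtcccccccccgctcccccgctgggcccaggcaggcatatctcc
Socs1: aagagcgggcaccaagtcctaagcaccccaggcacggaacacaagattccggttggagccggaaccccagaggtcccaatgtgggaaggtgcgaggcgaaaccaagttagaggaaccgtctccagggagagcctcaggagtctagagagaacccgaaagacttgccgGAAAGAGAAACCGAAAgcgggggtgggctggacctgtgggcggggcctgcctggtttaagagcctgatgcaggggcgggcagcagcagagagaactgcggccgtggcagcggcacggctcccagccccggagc
This motif stood in 3.44% of 32851 promoters of the table and in 11 of the 18 promoters (61.1%) of the 16 interferon-gamma list genes that had an entry. Promoters of the nonclassical list held it in 8% of 25 cases. A match describes the letters of the window and shows no binding.

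Cells with 3 or more Ly6c2 UMIs made up larger shares of the set with anti-PD-1 and the combination, and the interferon-gamma difference was seen in every Ly6c2 class of the cells. In cells without Ly6c2 the 24 listed genes summed to 2954, 9237, 2281 and 5629 CPM, in cells with 1 or 2 UMIs to 3578, 9671, 2990.4 and 6401 CPM, and in cells with 3 or more to 5311, 11998, 3708 and 7647 CPM. The order of the 4 libraries was the same in each class. The list was also higher with anti-PD-1 in each comparison set, with 18 genes and a median log2 ratio of 1.42 in Ly6c2 monocytes, 18 genes and 1.42 in C1q macrophages, and 16 genes and 1.11 in Cd209a dendritic cells, and the difference between sets was not tested.

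Type I interferon and antigen presentation genes also stood higher with anti-PD-1, less far. Of 25 type I interferon genes 17 were higher and 1 lower, with a median of 0.76. Isg15 was at 648, 1248, 416 and 705 CPM and Ifit3, an antiviral protein, at 48.0, 106, 20.6 and 34.2 CPM, both highest with anti-PD-1 and lowest with anti-PSGL-1. Of 16 MHC class I genes 7 were higher, with the immunoproteasome subunit Psmb9 at 246, 451, 246 and 445 CPM and the peptide transporter Tap1 at 236, 393, 189.6 and 357 CPM. Among 10 class II genes only Cd40, a costimulatory receptor, passed 1.5-fold. Fcgr4 had a ratio of 2.00 (1.75 to 2.30) and Cd274 of 2.70 (2.29 to 3.19), whereas the other nonclassical markers did not pass 1.5-fold in either direction, 28 being tested.

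Inflammatory chemokines were divided under anti-PD-1. The neutrophil attractants Cxcl3 (131, 2.83, 129 and 11.1 CPM) and Cxcl2 were lower, with ratios of 0.0216 and 0.378, and so was Ccl3 at 655, 212, 723 and 347 CPM. Cxcl3 was carried by few cells, 15 with IgG and 4 with anti-PD-1. Cxcl1 had a ratio of 0.270, but 17 of its 22 UMIs with IgG came from 1 cell, and without it IgG had 3.81 CPM. The neutrophil list was lower alongside, at 267 against 1153 CPM, with 4 of 5 tested genes lower, and its part in the chemokine differences was not tested. The monocyte attractants Ccl2, Ccl7 and Ccl12 were higher, with ratios of 1.62, 1.64 and 2.43. Ccl7 came from 18 cells with IgG and 22 with anti-PD-1, with 66.7% and 69.8% of UMIs in 3 cells, and Ccl12 from 16 and 23 cells, with 47.9% and 61.8% in 3 cells.

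Anti-PSGL-1 gave a smaller and different set. With it 3.38% of genes were higher and 3.12% lower than with IgG. The chosen cells held 3202110 UMIs with anti-PSGL-1 and 1768027 with anti-PD-1. On thinned cells the counts of the 2 comparisons with IgG lay closer together, as given in the closing section. Of 21 glycolysis and hypoxia genes 9 were higher and 0 lower, with a median log2 ratio of 0.49 against -0.01 over all genes. Egln3, an oxygen-sensing prolyl hydroxylase, was at 12.9, 11.3, 42.5 and 17.9 CPM, a ratio of 3.28 (1.98 to 5.80), and 63 cells carried it with anti-PSGL-1 against 8 with IgG. Ero1l, an oxidase of protein folding, was at 76.9, 55.4, 181 and 84.0 CPM, Mif, a cytokine induced by low oxygen, at 276, 281, 499.7 and 266 CPM and Slc2a1 at 92.1, 129.5, 166 and 103 CPM, each with its highest value in the anti-PSGL-1 library. In the comparison sets the same 21 genes had 2 higher and a median of 0.12 in Ly6c2 monocytes, 0 and 0.17 in C1q macrophages, and 2 and 0.04 in Cd209a dendritic cells, a difference that was not tested. The neutrophil list was also higher in this library, at 2353 against 1153 CPM, and without cells carrying neutrophil UMIs the hypoxia median was 0.54. On thinned cells it was 0.27.

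**Figure D5:**
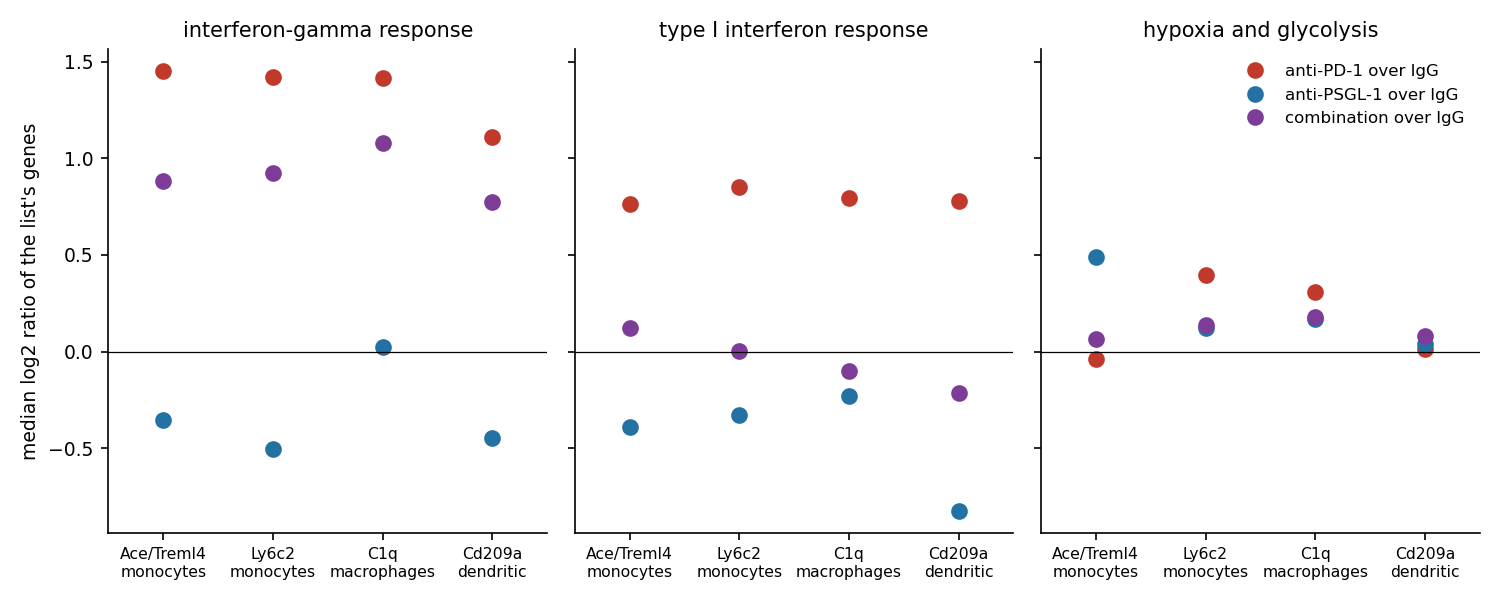
Median log2 ratio over IgG (y axis) of the interferon-gamma, type I interferon and hypoxia lists in 4 cell sets (x axis), for the 3 treated libraries. The interferon-gamma medians with anti-PD-1 are 1.45, 1.42, 1.42 and 1.11, and the hypoxia median with anti-PSGL-1 is 0.49 in Ace/Treml4 monocytes and between 0.04 and 0.17 in the other sets.

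Interferon and class II genes were lower with anti-PSGL-1. Of 25 type I interferon genes 10 were lower and 0 higher, with a median of -0.39. Rsad2, the antiviral enzyme viperin, was at 239.8, 302, 104 and 95.9 CPM, a ratio of 0.435 (0.372 to 0.509), and Mx1, an antiviral GTPase, at 40.3, 49.8, 16.2 and 19.5 CPM. Of 19 interferon-gamma genes 4 were lower and 1 higher. Class II genes were lower in 4 of 10, with Cd74, the invariant chain, at 5869, 7013, 3889 and 4954 CPM. The class II median was -0.52, and -0.27 without cells that carried 2 or more UMIs of T, NK, B or neutrophil markers. None of 16 class I genes passed 1.5-fold.

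The genes that stood out by size with anti-PSGL-1 were Inhba, Upp1, S100a8 and S100a9 beside Egln3. Inhba, the activin A subunit, was at 38.1, 73.5, 127 and 53.3 CPM, a ratio of 3.34 (2.49 to 4.57), from 72 cells with anti-PSGL-1 and 23 with IgG. Upp1, uridine phosphorylase, was at 38.1, 94.5, 111 and 157 CPM and higher than IgG in all 3 treated libraries, with ratios of 2.48, 2.90 and 4.13. Lower were Gdf15, a stress-induced cytokine, at 49.5, 9.62, 13.4 and 23.1 CPM, Ccnd1 at 42.6, 43.6, 12.2 and 14.3 CPM, Rogdi at 28.2, 27.1, 8.12 and 18.3 CPM and Tmem176a, a membrane protein of myeloid cells, at 149, 100.1, 64.6 and 61.7 CPM. Gdf15 came from 11 cells with IgG and 15 with anti-PSGL-1, and Ccnd1 was higher, not lower, with a ratio of 2.75, once cells with UMIs of other lineages were left out.

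The combination also had higher interferon-gamma genes, at a lower level than anti-PD-1. Over IgG, 6.23% of genes were higher and 2.72% lower, and 16 of 19 interferon-gamma genes were higher, with a median of 0.88. Iigp1 had a ratio of 10.5 (6.24 to 18.9), Irgm1 of 2.30 (1.99 to 2.66) and Cxcl10 of 1.55 (1.45 to 1.66). Class I genes were higher in 8 of 16, with a median of 0.58. H2-Q6 was at 35.0, 53.2, 45.3 and 109.9 CPM and H2-Q7 at 156, 270.4, 165 and 385 CPM, both highest with the combination, and H2-K1 at 1866, 2493, 1787 and 2992 CPM. Type I interferon genes were divided, with 3 higher and 4 lower, and class II genes had 0 of 10 in either direction.

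Markers of the nonclassical state summed highest with the combination. Of 28 tested, 7 were higher and 0 lower than with IgG, with a median log2 ratio of 0.32 against 0.03 over all genes. These were Cd274, Fcgr4, Cd300e, Fabp4, Eno3, Itga4 and Klf2, with ratios of 2.39, 1.94, 1.74, 1.73, 1.65, 1.61 and 1.56. With anti-PD-1 2 of the 28 were higher and with anti-PSGL-1 1 was lower. In cells with both Ace and Treml4 the list summed to 14911 CPM with the combination against 12910 with IgG. In cells with 1 UMI over both genes it was 8096 against 8437 CPM, and with Ace or Treml4 alone the combination was also below IgG. Cells with both made up 55.9% and 28.7%, and the part of this was not tested. The list was also highest with the combination in Ly6c2 monocytes and Cd209a dendritic cells, not in C1q macrophages. Icam1 was at 95.9, 179, 92.1 and 205 CPM, a ratio of 2.13 (1.75 to 2.61), and Bcl2 had a ratio of 1.81 (1.27 to 2.63). Irg1, the enzyme that makes itaconate, and Sod2, which detoxifies superoxide in mitochondria, had ratios of 2.99 and 2.15. Lower were Gpr183, an oxysterol receptor that guides cell migration, at 46.4, 26.6, 33.4 and 13.5 CPM, Ccl12 at 36.5, 88.8, 47.5 and 5.18 CPM and Hilpda, a hypoxia-induced lipid droplet protein, at 355, 168, 432 and 154 CPM.

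The combination was then set against each single antibody. Over anti-PD-1, 5.03% of genes were higher and 3.55% lower. Of 25 type I interferon genes 17 were lower and 1 higher, with a median of -0.77, and Rsad2 and Ifit3 had ratios of 0.318 (0.272 to 0.371) and 0.322 (0.247 to 0.418). Of 19 interferon-gamma genes 6 were lower. Spn was higher, with a ratio of 1.98 (1.63 to 2.42). Over anti-PSGL-1, 5.43% of genes were higher and 4.66% lower. There 18 of 19 interferon-gamma genes, 11 of 16 class I genes and 9 of 25 type I interferon genes were higher and 0 lower, whereas 10 of 21 hypoxia genes were lower and 0 higher. Vcan was lower with the combination than with anti-PSGL-1, at 199, 128, 363 and 157 CPM.

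Some large ratios came from neutrophil genes in few cells. Camp, an antimicrobial peptide of neutrophil granules, was found in a single cell of the combination library, with 332 UMIs, and at 0 in the other 3 libraries. The same library had 95.8% of its 191 Ltf UMIs (lactoferrin) and 91.1% of its 327 Lcn2 UMIs (lipocalin 2) in 1 cell. S100a8 was at 360.0, 17.0, 904 and 819.7 CPM and S100a9 at 423, 34.5, 949 and 1125 CPM, carried by 25 and 16 cells of the combination library, with 56.0% and 55.0% of the UMIs in 1 cell. With anti-PSGL-1 they were carried by 66 and 54 cells, with 18.2% and 23.6% in the top cell. The library means of these genes describe a few cells, and the share of those cells in the differences between libraries is given by the leave-out values in the closing section.

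Other large ratios were also seen in Ly6c2 monocytes. Gstp1, a glutathione transferase, had a ratio of 0.182 for anti-PD-1 over IgG, and in Ly6c2 monocytes stood at 69.3, 7.88, 71.6 and 67.8 CPM. Polr2l, an RNA polymerase subunit, was at 44.1, 173, 73.1 and 60.1 CPM in Ace/Treml4 and 51.0, 220.3, 69.4 and 56.5 CPM in Ly6c2 monocytes, highest with anti-PD-1 in both. Pgk1 and Eno1, glycolytic enzymes that counted among the 4 lower hypoxia genes with anti-PD-1, were at 63.9, 18.7, 92.8 and 48.2 and 454, 182, 542 and 405 CPM, and in Ly6c2 monocytes at 75.9, 24.7, 95.1 and 81.7 and 566, 280.1, 640.5 and 546 CPM, lowest with anti-PD-1 in both.

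Genes of the antibody targets themselves differed little. Selplg was at 225, 209, 203 and 231 CPM in Ace/Treml4 monocytes, with 60.6, 69.0, 69.7 and 73.9% of cells carrying a UMI. Vsir, which encodes VISTA, a reported ligand of PSGL-1, was at 142, 150.4, 198 and 176 CPM. Pdcd1 was barely detected, at 3.04, 5.66, 2.19 and 5.57 CPM. Cd274 was at 145, 390.3, 193 and 345 CPM with a UMI in 33.7, 69.7, 52.1 and 73.9% of cells, highest with anti-PD-1 and the combination, and Pdcd1lg2, which encodes PD-L2, was at 16.7, 16.4, 19.0 and 14.3 CPM.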

How the data were processed

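RNA was measured by droplet single-cell sequencing in 4 libraries, 1 per treatment label. The authors deposited matrices of whole-number UMI counts, without normalization, over 27998 genes. The authors used Cell Ranger 3.1.0 with mm10 and FastQC, per the submitters' processing notes. Whether doublets were removed before deposit is not given in the sources used here.

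Kept cells had 300 or more genes, mitochondrial UMIs of up to 10% and no more than 60000 UMIs. UMIs were summed per cell set and library. Shares carry exact 95% binomial (Clopper-Pearson) intervals. Ratios between libraries carry exact conditional 95% intervals, for genes with a mean of 20 CPM or more, with 5 comparisons and a fold of 1.5. Cell sets were compared with edgeR 4.0.16 (quasi-likelihood test, TMM, filterByExpr, library as block, Benjamini-Hochberg adjustment at 0.05), genes of the gates left out. DESeq2 1.42.0, thinning to 2000 UMIs (seed 0), removal of the 717, 219, 377 and 154 cells with the highest Scrublet scores, and other gates were alternatives. Doublets were left in otherwise, because Scrublet by its own threshold marked 1, 84, 0 and 42 cells, too few to have worked. The edgeR test and the ratio intervals were tested on simulated data. Python 3.11.15, scanpy 1.11.5, scipy 1.17.1 and R 4.3.3 were used. Coordinates come from GENCODE vM21, where 487 of 488 gene IDs were found.

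The members and lists were chosen with earlier results of these data known. Named were the 5 genes each way between libraries by the interval bound nearest to 1, the 10 each way between sets by fold change (adjusted p of 0.05, same direction in 4 libraries, 50 CPM or more), all markers, the antibody targets and up to 3 members each way of each of the 16 functional lists. The rule left out genes of the gates, sex-linked genes, predicted models, and genes of antigen receptors, mitochondria, ribosomal proteins, haemoglobins, melanoma, red cells and keratinocytes. Other genes were named after their values were seen. Trac, Trbc2, Itgam, Cebpd, Mx2, Cxcl11, Gbp6, Clec7a, Cd300c2 and Acod1 were not analysed here, and some other genes are not reported here.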

Additional observations from a re-analysis of the deposited data

Results flagged for a closer look

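All 60 named differences between cell sets were examined for 1 library standing apart from the other 3 in the log2 ratio. In 3 genes it did, by a gap that chance gives in about 1 of 20 groups of 4. A count of 3 is near what chance alone would give. The S100a9 ratio of Ace/Treml4 over Ly6c2 monocytes was 6.69 with the combination. The Mgl2 ratio over C1q macrophages was -0.14 with anti-PD-1, and the Pxdc1 ratio over Cd209a dendritic cells was -3.16 with anti-PD-1.

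In 10 genes a ratio between 2 libraries passed 1.5-fold one way in Ace/Treml4 monocytes and the other way in Ly6c2 monocytes, and the differences were not tested. The search covered the tested genes of all lists and the genes named by size, over 5 comparisons. How many such cases chance would give was not tested. With anti-PD-1 over IgG, Bnip3, a mitochondrial gene induced by low oxygen, had ratios of 0.562 in Ace/Treml4 and 1.81 in Ly6c2 monocytes, and the chemokine gene Ccl4 had 0.537 and 2.18. With anti-PSGL-1 over IgG, Gdf15 had 0.271 and 2.30. With the combination over IgG, Bcl2 had 1.81 and 0.550, S100a8 had 2.28 and 0.287, and S100a9 had 2.66 and 0.0760. With the combination over anti-PD-1, Ero1l had 1.52 and 0.664, G0s2 had 1.65 and 0.423, Runx2 had 1.63 and 0.566, and S100a9 had 32.6 and 0.648. With the combination over anti-PSGL-1, Lcn2 had 4.85 and 0.286. Of the Lcn2 UMIs in the combination library 91.1% came from 1 cell, as did 56.0% of those of S100a8 and 55.0% of those of S100a9. With anti-PD-1, 1 cell held 58.5% of the G0s2 UMIs. For Gdf15, 1 cell held 27.7% with IgG and 37.2% with anti-PSGL-1.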

How the results depend on the processing

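Of the planned and added settings, none moved the median of a functional list between libraries by 1.5-fold or more (800 values). Medians of marker lists were not checked in this way. Between cell sets 666 values of named genes kept their direction and call, and 7 lost the call, for S100a9, G0s2, Gzma and Ccl24 against Ly6c2 monocytes. Named genes that a setting left untested are not in these counts. Of 60 values, 50 could be checked on thinned cells, 46 without mixed-lineage cells and 57 without neutrophil-UMI cells. Counts and single genes moved more, and the cause was not tested beyond what each setting itself removes. No paired analysis was possible because each treatment is 1 library, and the library is already the block between cell sets.

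The share of Ace/Treml4 monocytes, in the order of the libraries, was 1.52%, 3.19%, 3.80% and 4.95% with at least 2 Ace and Treml4 UMIs, 1.69%, 2.75%, 2.58% and 3.67% on thinned counts, and 1.94%, 2.75%, 2.81% and 3.35% without cells holding 2 or more UMIs of other lineages. Without cells with 2 or more neutrophil UMIs, a setting chosen after seeing the data, it was 4.99% with anti-PSGL-1.

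Counts of genes past 1.5-fold, given as higher and lower, changed as follows. With anti-PD-1 over IgG they were 890 and 736 on thinned cells, and 764 and 878 with a 5 CPM filter. The lower count was 437 with at least 2 Ace and Treml4 UMIs and 422 without mixed-lineage cells. With anti-PSGL-1 over IgG they were 319 and 238, 705 and 672, 266 and 269, and 649 and 519 under the 4 settings in the order at least 2 UMIs, thinned, mixed-lineage and 5 CPM. With the combination over IgG they were 477 and 207, 900 and 682, 461 and 243, and 782 and 543. Over anti-PD-1 the combination had 781 and 680 thinned, 461 and 306 without mixed-lineage cells, and 796 and 508 at 5 CPM. Over anti-PSGL-1 it had 840 and 660 thinned, 498 higher without mixed-lineage cells, and 588 and 598 at 5 CPM.

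Between cell sets, against Ly6c2 monocytes, counts higher and lower were 599 and 559 without mixed-lineage cells, 455 and 429 thinned, 432 and 235 with no library term, 495 and 433 with DESeq2, and 492 and 458 with both sets at 3 or more Ly6c2 UMIs, the last chosen after seeing the data. Leaving out 1 library in turn gave 689 to 874 higher and 588 to 840 lower, the lowest without combination replicate 1. Against C1q macrophages they were 721 and 685 thinned and 1199 and 1056 with DESeq2. Against Cd209a dendritic cells they were 631 and 536 without mixed-lineage cells and 675 and 700 thinned.

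Apart from Ccnd1 and Lyz1, the single genes that reversed were neutrophil genes. Without neutrophil-UMI cells S100a8 had a ratio of 1.05 for anti-PD-1 over IgG, and the combination over anti-PD-1 had 0.739 for S100a9 and 0.493 for Ltf. Without mixed-lineage cells, anti-PSGL-1 over IgG had 0.598 for S100a9 and 2.75 for Ccnd1. Camp fell to 0 in all 3 comparisons of the combination with at least 2 UMIs, thinned, and without mixed-lineage or neutrophil-UMI cells. With at least 2 UMIs Ltf had 0.738 over IgG, 0.391 over anti-PD-1 and 0.413 over anti-PSGL-1, and Lcn2 had 0.335 over anti-PSGL-1. Thinned, Ltf had 0 over IgG and anti-PSGL-1, Lcn2 had 0.872 over anti-PD-1 and 0.210 over anti-PSGL-1, and Lyz1 had 2.62 over anti-PD-1. Without neutrophil-UMI cells Lcn2 had 0.939 over anti-PSGL-1.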

Other observations

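Several further gene groups had members called both ways between Ace/Treml4 and Ly6c2 monocytes (edgeR's quasi-likelihood test with Benjamini-Hochberg adjustment). Over all 8371 genes tested, 11.9% were higher and 11.8% lower. Of 25 transcription factor genes tested, 9 were higher, among them Spi1, which encodes the myeloid factor PU.1, Klf4, Cebpb (log2 fold change 0.22) and Egr1 (0.87), and 6 were lower, among them the macrophage factor Maf and the oxygen-regulated Hif1a. Of 22 lipid and lysosome genes 6 were higher, with the cholesterol exporter Abcg1 and the uptake receptors Cd36 and Lrp1, and 10 were lower, with Fabp5 (-0.60), Gpnmb (-1.56) and the cathepsins Ctsc, Ctsd and Ctsl. Of 13 complement and coagulation genes only Itgax was higher, no more than the share over all genes, and C5ar1, C3ar1, Cfp (-0.95) and F13a1 were lower. Cybb, the catalytic subunit of the phagocyte oxidase, was higher at 0.50.

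Genes that respond to tissue dissociation showed no common direction. Of 18 tested, 6 were higher, led by Egr1 and Ier2 (0.63), and 4 were lower, Fosb, Ier3, Hspa1a and Hspa8, with a median log2 fold change of -0.04. The shares over all genes tested were 11.9% higher and 11.8% lower. Nr4a1 is itself induced by acute stimuli, and the part of dissociation in its level was not tested.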
